A study of Drosophila melanogaster with 4 samples.

Results

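The right arm of the third chromosome of Drosophila melanogaster, 3R, carried 507 of the 2922 peaks called for the transcription factor Lola in late embryos, or 17.4% of the list. They were chosen by position alone: every peak listed on 3R was taken, whatever its strength, and the 8 peaks of 3RHet, the assembled heterochromatin of this arm, were left out. The peaks come from chromatin immunoprecipitation followed by sequencing (ChIP-seq), in which protein crosslinked to DNA is pulled down with an antibody and the recovered DNA is sequenced. The series holds 2 libraries precipitated with a rabbit polyclonal antibody against green fluorescent protein (GFP) and 2 libraries of input DNA, both from whole embryos aged 12 to 24 h. All embryos, those of the input included, are labelled with the strain lola-RJ-GFP, the genotype PBac{y[+]-attP-3B}VK00033 and a transgene of the lola-RJ genomic coding region. The extraction protocol names flies marked with y, bw, cn and sp instead, and the labels do not settle which flies were used. There is no GFP precipitation from untagged embryos and no second stage or genotype among the libraries, so DNA recovered without the tagged protein cannot be told apart from DNA bound by it.

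Lola (longitudinals lacking) is known in flies for its part in the growth and guidance of axons. Its gene, on arm 2R, is spliced into many proteins that share a BTB domain, through which they pair, and that differ in their C-terminal ends, most of which carry zinc fingers that contact DNA. The labels name the tagged transcript RJ and the series title names its protein PJ. Arm 3R is euchromatic over most of its length, with the pericentric heterochromatin at the low end of its coordinates and the telomere at the high end.

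The deposited list gives each peak a start, an end and 1 score set by the authors' peak calling, and the formula of the score is not named. The score is used here only to describe and rank peaks. No value is given per library, so there is no replicate error for any peak, and the depth behind the peaks is unknown. Intervals printed below are at the 95% level and cover counting error over peaks only. In whole embryos, binding in more cells and stronger binding per cell cannot be told apart. All coordinates are those of FlyBase release 5, whose gene annotation and genome sequence were not used here, so regions are given by position, without genes or sequence.

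The peaks ran along the whole arm, from 31 to 27878835, a span of 27.9 Mb, with 18.2 peaks per Mb (Poisson interval, 16.6 to 19.8) and 282 kb of covered sequence. Counted in 28 bins of 1 Mb from the first peak, the number of peaks had a lowest value of 6, a median of 18 and a highest value of 33. The fullest bin was the sixth from the centromere end and the emptiest the sixteenth. No bin of 1 Mb was without a peak.

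**Figure D1:**
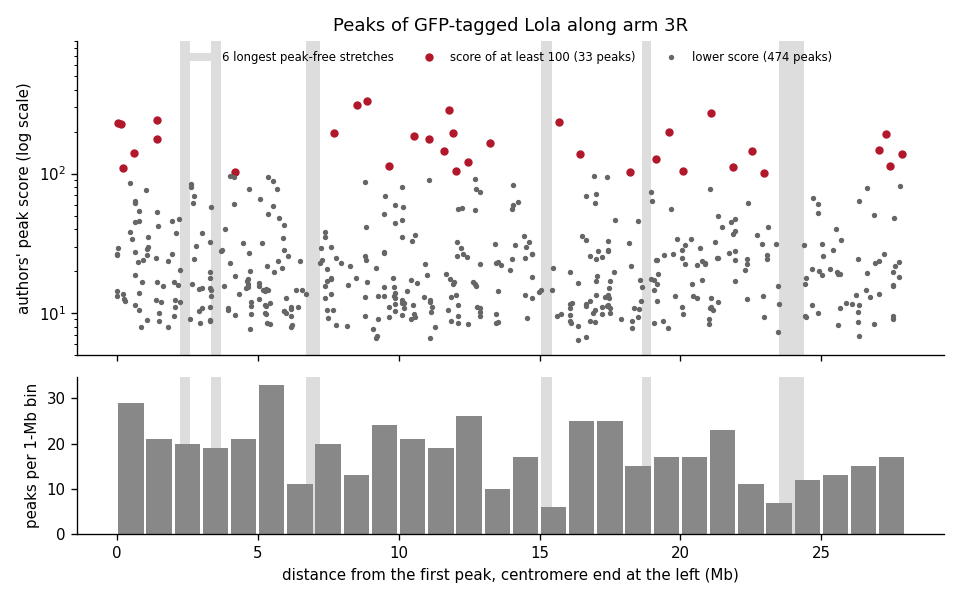
Each point is 1 of the 507 peaks on 3R, placed by its distance from the first peak (Mb, centromere end at the left) and by the authors' score (log scale); the bars below count peaks per 1-Mb bin and the grey bands mark the 6 longest stretches without a peak. The 33 red points have a score of at least 100 and lie in 18 of the 28 bins, and the counts per bin range between 6 and 33.

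Peaks became sparser from the centromere end to the telomere end. With the span cut into 4 equal segments of 6.97 Mb, the counts from the centromere end were 154, 132, 123 and 98. The corresponding densities were 22.1 (18.7 to 25.9), 18.9 (15.8 to 22.5), 17.6 (14.7 to 21.1) and 14.1 (11.4 to 17.1) peaks per Mb. The segment at the centromere end was 1.57 times as dense as the segment at the telomere end (exact interval, 1.21 to 2.05). This ratio was chosen after the data were seen. The segment at the telomere end includes the arm's longest stretch without a peak, 869 kb, and the ratio was not computed without it. Once neighbours within 10 kb were merged, the ratio was 1.37 and its interval, 0.990 to 1.90, held 1. It also held 1 for peaks scoring at or above the list's median of 19.4, at 1.28 (0.893 to 1.84).

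The same ratio was 1.55 on 2L (1.21 to 1.99), 1.27 on 2R (0.969 to 1.66), 0.854 on 3L (0.652 to 1.12) and 0.689 on X (0.504 to 0.937). On 2L it rested on a block of 68 neighbouring peaks, without which it was 0.927 (0.700 to 1.23). Of the 5 arms, only 3R had counts that fell at each step from the first segment to the last, and the difference in trend between arms was not tested. On 2R the counts were 128, 138, 108 and 101, and on 3L, the other arm of the same chromosome, they were 105, 97, 125 and 123.

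**Figure D2:**
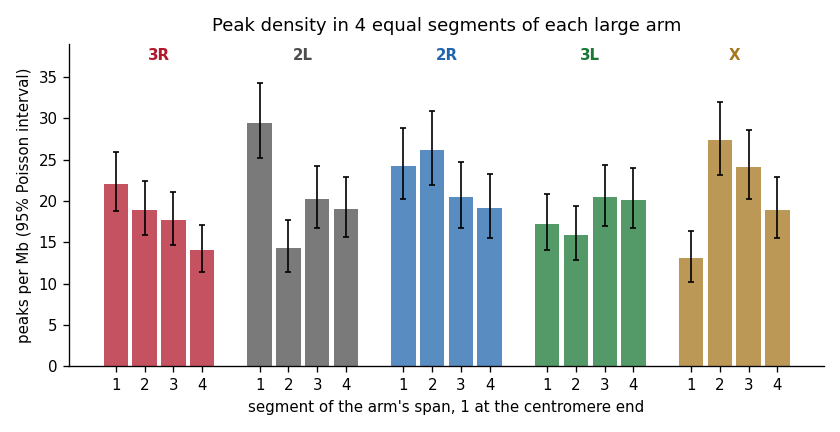
Bars give the peaks per Mb in each of 4 equal segments of the span of the 5 large arms, with segment 1 at the centromere end and error bars as exact 95% Poisson intervals. On 3R the density falls at each step, between 22.1 and 14.1 peaks per Mb, whereas on 3L and X the segment at the centromere end is below the segment at the telomere end.

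Scores and widths were also read along the arm. The median score was 17.2 in the segment at the centromere end (order-statistic interval, 15.2 to 23.5), 16.9 in the second (14.5 to 21.7), 17.5 in the third (14.7 to 22.6) and 22.1 in the last (18.7 to 25.7). These intervals overlap. Median widths in the 4 segments were 465, 439, 420 and 451 bp. Peaks with a score of at least 100 numbered 7, 12, 6 and 8, which is 4.55%, 9.09%, 4.88% and 8.16% of the peaks of each segment.

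The list's first entries on 3R stood at the very start of the arm's sequence. The first peak ran from 31 to 1147 with a score of 26.71, so its left edge is 31 bases into the sequence, and whether the enriched region went on beyond the start is not shown by the list. Further peaks followed up to 13365, with scores of 13.35, 14.29 and 26.07. The peaks at 57864 to 59162 and 159408 to 161101, with scores of 231.15 and 227, rank 7 and 8 on the arm and have no listed peak between them. The next peak, at 225443 to 226353, had a score of 109.5. The first bin of 1 Mb thus held 29 peaks, 4 of them with a score of at least 100. The 2 Mb at this end carried 25 peaks per Mb, against 17.7 per Mb on the rest of the arm, a ratio of 1.42 (exact interval, 1.04 to 1.90). With neighbours within 10 kb merged, it was 1.19 and its interval, 0.776 to 1.75, held 1.

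The 15 strongest peaks of 3R lay between 57864 and 27284566, with long stretches free of them. None lay between 1432769 and 7707825 or between 21091927 and 27283408. The highest score, 332.06, belonged to the peak at 8889374 to 8890736, which was 1363 bp wide and had rank 3 in the whole list. A small peak of 518 bp with a score of 16.75 began 211 bp beyond its right edge. The second, 312.27, was at 8537554 to 8538876, with 58.7 kb to its nearest neighbour. The third, 284, was at 11798127 to 11799663, with 30.2 kb to its nearest neighbour. The fourth, 270.44, was at 21090971 to 21091927 and was only 957 bp wide. At rank 5, a score of 242.73 was listed at 1416801 to 1417975.

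The peak of rank 6, at 15686808 to 15687908, with a score of 232.82, was 1 of 6 peaks in the emptiest bin of the arm. It lay 66.8 kb from its nearest neighbour. After the 2 peaks near the start of the arm came one at 19606916 to 19607726 with a score of 198.92, 811 bp wide, and one at 11924873 to 11926445 with a score of 194.38, 1573 bp wide. The remaining 5 were at 7707825 to 7709011 (score 194.24), 27283408 to 27284566 (192.84), 10549620 to 10550426 (185.6), 11067601 to 11068493 (178.24) and 1431947 to 1432769 (176.79). Of these 15 peaks, 8 had no other peak within 10 kb and 7 had at least 1, and their widths ran from 807 to 1694 bp.

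No strong peak on 3R had another within 10 kb, as was also the case on 3L. In all, 33 peaks had a score of at least 100, or 6.51% of the arm's peaks (Wilson interval, 4.67 to 9.00%) and 1.18 per Mb. The peaks next to that score, on either side, had scores of 100.85 at 22976600 to 22977419 and 96.66 at 16944198 to 16945021. None of the 33 had another such peak within 10 kb, edge to edge, so the share was 0% (Wilson interval, 0 to 10.4%). The limit of 3 counts that a count of 0 allows gives a share of up to 9.09%. Of the weaker peaks of 3R, 3.16% lay within 10 kb of a strong one, a share that this interval holds. The nearest strong neighbours were the peaks of rank 5 and 15, whose centres were 15.0 kb apart, with 1 peak of score 16.64 between them. Elsewhere, on 2L 6 of 35 such peaks lay within 10 kb of another, on 2R 8 of 46, on 3L 0 of 17 and on X 8 of 36. The median distance between the centres of neighbouring strong peaks was 535 kb on 3R. It was 1153 kb on 3L, 322 kb on 2L, 188 kb on 2R and 168 kb on X.

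A pair of long stretches of 3R held many peaks but no strong one. The longer, 4.07 Mb between centres, lay between the peak at 22976600 to 22977419 and the peak at 27045180 to 27046019. It held 48 weaker peaks with a median score of 19.1 and a highest score of 78.84. The other, 3.52 Mb, lay between the peaks at 4187904 to 4188696 and 7707825 to 7709011, and its 74 weaker peaks had a median score of 15.4 and a highest score of 94.31. It includes the fullest 1-Mb bin of the arm, with 33 peaks, none of which reached 100. The next fullest bin, the first of the arm with 29 peaks, held 4 peaks with a score of at least 100. No bin held more. Such stretches were not particular to 3R. The longest distance between centres of neighbouring strong peaks was 4.26 Mb on 3L, 3.64 Mb on 2L, 2.71 Mb on X and 2.38 Mb on 2R.

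The share of weaker peaks close to a strong one was also counted. On 3R 15 of 474 weaker peaks (3.16%; Wilson interval, 1.93 to 5.16%) lay within 10 kb of a peak with a score of at least 100. The shares were 4.76% on 2L (3.14 to 7.17%), 9.79% on 2R (7.32 to 13.0%), 2.08% on 3L (1.10 to 3.90%) and 6.50% on X (4.53 to 9.23%). The share depends on how many strong peaks an arm has, which was 1.18 per Mb on 3R, 1.52 on 2L, 2.18 on 2R, 0.696 on 3L and 1.61 on X. Neither the difference between arms nor a departure from even placement along an arm was tested.

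The question of whether 3R was sparser than the other large arms was asked pair by pair. Against 2R, the density on 3R was 0.809 times as high (18.2 and 22.5 peaks per Mb; exact interval of the ratio, 0.712 to 0.919; two-sided exact binomial test, adjusted p = 0.0040 over the 4 arms compared). This call was lost after merging of neighbours within 1 kb, at 0.853 (exact binomial test, adjusted p = 0.10), and within 10 kb, at 0.882 (exact binomial test, adjusted p = 0.49). Against 2L and X the ratios were 0.877 (0.772 to 0.996) and 0.872 (0.767 to 0.991), and neither passed the exact binomial test after adjustment (adjusted p = 0.054 for each). The ratio to 2L was 1.00 and 1.05 after merging of neighbours within 1 kb and within 10 kb, and 1.00 without the largest group of each arm. Against 3L the ratio was 0.988 (0.868 to 1.12; exact binomial test, adjusted p = 0.87). Neighbouring peaks are counted as independent in this test, which makes its p-values too small.

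Counted as groups joined up to 10 kb, 3R had 333 groups, or 11.9 per Mb (Poisson interval, 10.7 to 13.3). The other arms had 11.4 (10.1 to 12.9) on 2L, 13.5 (12.0 to 15.2) on 2R, 11.6 (10.3 to 13.1) on 3L and 12.0 (10.6 to 13.5) on X, and all 4 of these intervals overlap that of 3R.

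Many peaks on 3R were solitary. With neighbours up to 10 kb apart, edge to edge, taken as 1 group, 237 of the 507 peaks (46.7%; Wilson interval, 42.4 to 51.1%) stood alone. This share was 37.2% on 2L (33.0 to 41.6%), 37.9% on 2R (33.6 to 42.3%), 42.9% on 3L (38.4 to 47.5%) and 35.1% on X (30.9 to 39.6%). Without the block of 68 peaks it was 43.4% on 2L (38.7 to 48.2%). The other 270 peaks of 3R formed 51 pairs, 22 groups of 3, 16 groups of 4 and 7 groups of 5 or more. Groups of 5 or more took 38 peaks, 7.50% of those on 3R (5.51 to 10.1%), against 23.3% on 2L, 11.4% on 2R (8.82 to 14.5%), 11.6% on 3L (8.92 to 14.8%) and 12.4% on X (9.73 to 15.7%). On 2L the share was 10.5% without the block (7.92 to 13.9%). The largest group on 3R held 7 peaks, against 68 on 2L, 7 on 2R, 8 on 3L and 14 on X. None of these shares was tested between arms. Shares at a fixed distance of 10 kb depend on peak density, which was lowest on 3R, at 18.2 peaks per Mb against 18.4 to 22.5 elsewhere. Peaks of 1 group share its size, so the intervals for groups of 5 or more, which count peaks as independent, are too narrow.

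**Figure D3:**
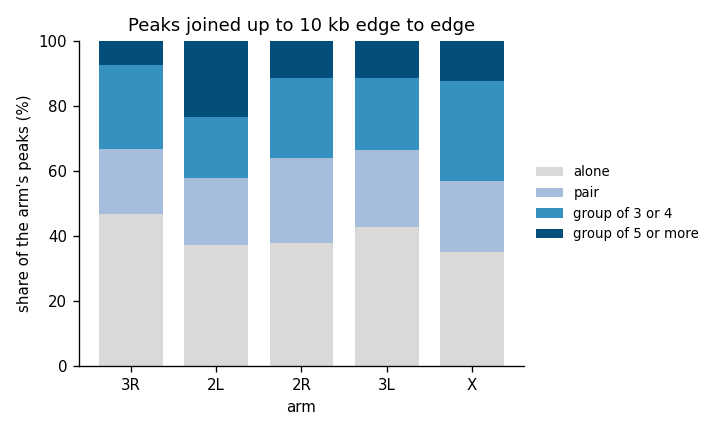
Stacked bars give, for each large arm, the percentage of its peaks that stand alone or belong to groups of 2, of 3 or 4, or of 5 or more peaks joined up to 10 kb edge to edge. The part standing alone is 46.7% on 3R and between 35.1% and 42.9% on the other arms, and the part in groups of 5 or more is 7.50% on 3R and at least 11.4% elsewhere.

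The highest score in the 7 groups of 5 or more was 63.91. None of their 38 peaks reached a score of 100, against 6.51% of all peaks on 3R. Below the list's median score were 22 of the 38 (57.9%), close to the 51.7% of all peaks on the arm. The group with 7 peaks lay at 3299317 to 3317959. Its first 3 peaks, with scores of 19.71, 32.24 and 15.06, sat between 3299317 and 3301634, the fourth, with a score of 8.74, stood by itself, and its last 3 had scores of 11.1, 8.93 and 17.87. The group of 6 lay at 627869 to 647359 and was the strongest by its median score of 36.1, with scores of 18.64, 44.84, 27.42, 11.37, 63.91 and 61.8 along its length. It held the widest peak of the 7 groups, 1750 bp, at 637463 to 639212.

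The other 5 groups had 5 peaks each. The group at 9877200 to 9883357 was the most compact: its peaks covered 49.9% of its 6.16 kb, the first had a score of 44.31 and its median was 12.7. The longest, 22.5 kb, lay at 5912842 to 5935300 and had a median score of 28.3. The group at 21924796 to 21943573 had scores from 17.1 to 46.89 and widths from 381 to 519 bp. The groups at 16078684 to 16089066 and 27540709 to 27552389 had the lowest maxima, with highest scores of 19.66 and 19.71. In each, 4 of the 5 peaks scored below the list's median.

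The densest window of 100 kb on 3R, from 17400001 to 17500000, held 12 peaks in 4 separate groups, none of them with 5 peaks. Its strongest peak, at 17405299 to 17406382, had a score of 95.11, and the other 11 scored between 9.94 and 33.04. Windows at 3300001, 9800001 and 10100001 followed with 9 peaks each and median scores of 14.7, 14.0 and 12.5. Windows with 5 or more peaks made up 10.0% of the 279 windows on 3R (Wilson interval, 7.04 to 14.1%), and between 10% and 14.7% on the other arms.

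The share of empty windows on 3R lay within the range of the other arms, and 1 empty stretch on 3R was longer than any of theirs. Of the 279 windows, 82 held no peak (29.4%; Wilson interval, 24.4 to 35.0%), against 35.2% on 2L (29.3 to 41.6%), 23.1% on 2R (17.9 to 29.2%), 30.5% on 3L (25.1 to 36.5%) and 32.0% on X (26.3 to 38.4%). The longest stretch without a peak ran from 23503296 to 24372794, 869 kb. The longest such stretches elsewhere were 665 kb on 2L, 616 kb on 3L, 551 kb on X and 423 kb on 2R. The peaks at its edges stood alone, with scores of 11.59 and 30.74, of rank 381 and 142 on the arm. It lies in the last segment of the arm, inside the longer of the 2 stretches without a strong peak.

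The second longest stretch, 485 kb at 6712757 to 7197820, and the third, 399 kb at 15052399 to 15451122, were likewise bounded by solitary peaks, with scores of 13.68 and 22.93 and of 14.69 and 14.55. The fourth, 377 kb at 3334839 to 3712064, began in the same window of 100 kb as most of the group of 7 peaks, after a peak with a score of 57.66. The fifth and sixth were 352 kb at 2242518 to 2594145 and 348 kb at 18620008 to 18967585. The sixth ended at a peak with a score of 73.59. Gaps of over 200 kb numbered 30 on 3R, or 1.08 per Mb, and took 32.7% of its span, against 37.1% on 2L, 22.9% on 2R, 33.8% on 3L and 38.9% on X. Mappability and gaps in the assembly were not tested.

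The median distance between neighbouring centres on 3R was 22.8 kb (order-statistic interval, 18.6 to 27.1). The interval on 2L was 10.8 to 17.9 kb, on X 12.3 to 18.5 kb, on 2R 13.9 to 22.8 kb and on 3L 16.8 to 26.7 kb, so those of 2R and 3L overlap that of 3R. Without its block, 2L had a median of 19.2 kb (16.0 to 26.3), which overlaps as well. Distances of over 50 and up to 100 kb made up 17.6% on 3R (14.5 to 21.1%), against 9.89% on 2L (7.52 to 12.9%), 12.2% on 2R (9.59 to 15.5%), 14.5% on 3L (11.5 to 18.0%) and 8.80% on X (6.55 to 11.7%). Distances of over 100 kb took similar shares on all 5 arms, from 14.1% on 2R to 17.2% on 3R.

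**Figure D4:**
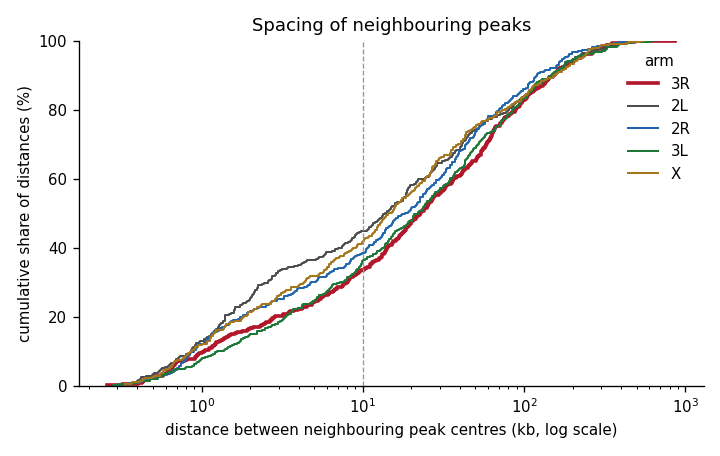
Curves give the cumulative percentage of distances between neighbouring peak centres up to each distance (kb, log scale) on the 5 large arms, and the dashed line marks 10 kb. At 10 kb the curve of 3R stands at 33.6%, below 36.3% on 3L, 38.4% on 2R, 41.6% on X and 44.8% on 2L, and beyond 100 kb the curves run close together.

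Some neighbours on 3R almost touched, and whether such pairs were called from a single enriched region was not tested. Gaps of at most 200 bp, edge to edge, numbered 30 of 506 (5.93%; Wilson interval, 4.18 to 8.34%), against 10.9% on 2L (8.45 to 14.1%), 8.23% on 2R (6.08 to 11.1%), 4.68% on 3L (3.08 to 7.04%) and 7.08% on X (5.09 to 9.78%). The smallest gap on 3R, 51 bp, separated peaks at 6176280 to 6176594 and 6176646 to 6176855, with scores of 7.93 and 9.52. On each of the other arms the smallest gap was 50 bp. In these 30 pairs the higher score was between 1.05 and 8.47 times the lower, with a median of 1.76. The strongest such pair lay 185 bp apart at 11067601 to 11068493 and 11068679 to 11069650, with scores of 178.24 and 89.86.

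Few peaks on 3R were wide. Their median width was 433 bp (order-statistic interval, 412 to 466), and the middle 50% of peaks lay between 293 and 708 bp. Medians on the other arms were 464 bp on 2L (428 to 489), 467 bp on 2R (420 to 511), 417 bp on 3L (389 to 456) and 459 bp on X (424 to 505), all with intervals that overlap that of 3R. Peaks of at least 1000 bp made up 11.6% on 3R (Wilson interval, 9.13 to 14.7%), against 20.0% on 2L (16.6 to 23.8%), 16.8% on 2R (13.7 to 20.5%), 9.78% on 3L (7.36 to 12.9%) and 17.1% on X (14.0 to 20.8%). On 2L the share was 15.2% without the block (12.0 to 19.0%). The widest peak of 3R measured 2090 bp, against 3973 bp on 2L, 3107 bp on 2R, 2850 bp on 3L and 2718 bp on X. The narrowest measured 201 bp on 3R and on each of the others. These shares were not tested between arms.

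The widest peaks of 3R were not its strongest. The peak of 2090 bp, at 1436999 to 1439088, had a score of 52.98 and lay 4.23 kb from the peak of rank 15 in the same group of 4. The next 4 by width were at 12046846 to 12048673 (1828 bp, score 103.81), 10564682 to 10566499 (1818 bp, 36.56), 14069299 to 14071106 (1808 bp, 82.68) and 9509449 to 9511247 (1799 bp, 69). A peak of 1118 bp at 4573074 to 4574191 had a score of only 15.02, the lowest of any peak of at least 1000 bp on the arm. At the other extreme, the narrowest peak with a score of at least 100, at 19118647 to 19119179, was 533 bp wide and had a score of 126.33. The last 2 peaks were chosen after their values were seen.

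Width and score went together over the arm as a whole. The 132 peaks under 300 bp had a median score of 10.9 and a highest of 35.92, and the 163 peaks of 300 to under 500 bp had a median of 16.1 and a highest of 91.87. The 153 peaks of 500 to under 1000 bp had a median of 28.5, and 14 of them reached 100. The 59 peaks of at least 1000 bp had a median of 60.1, and 19 of them (32.2%; Wilson interval, 21.7 to 44.9%) reached 100. Spearman's rho between width and score was 0.77 over the 507 peaks, which share 1 peak call and so are no independent points. On the other arms rho was similar, at 0.80 on 2L, 2R and X and 0.74 on 3L. The 3 lowest scores on the arm, 6.4 at 16372284 to 16372524, 6.59 at 11117908 to 11118139 and 6.67 at 9189435 to 9189736, belonged to peaks of 241, 232 and 302 bp.

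**Figure D5:**
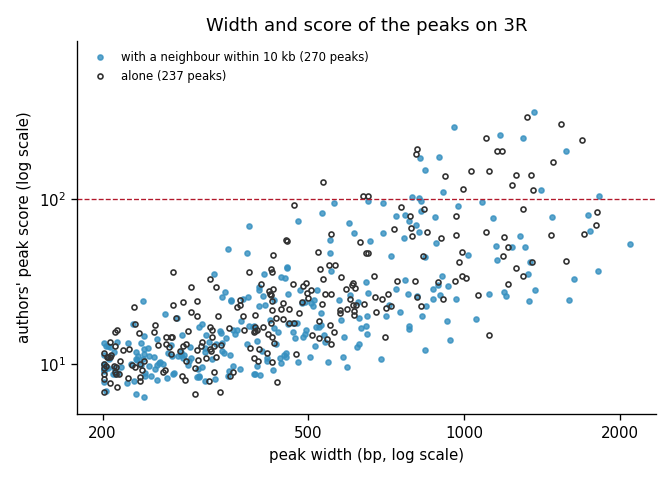
Each point is a peak on 3R by its width (bp, log scale) and the authors' score (log scale), filled where another peak lies within 10 kb and open where it stands alone; the dashed line marks a score of 100. No peak under 500 bp reaches the line, and peaks of both kinds lie above it, 13 with a neighbour and 20 alone.

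Solitary peaks of 3R had the higher median score. The 237 solitary peaks had a median score of 21.6 (order-statistic interval, 18.3 to 23.8) and the 270 peaks in groups had a median of 16.7 (14.8 to 18.4), intervals that meet at their ends. Median widths were 432 bp (409 to 494) for solitary peaks and 435 bp (397 to 477) for peaks in groups. A score of at least 100 was found for 20 solitary peaks (8.44%; Wilson interval, 5.53 to 12.7%) and 13 peaks in groups (4.81%; 2.84 to 8.06%). On the other 4 arms the median score of solitary peaks was also the higher one, at 19.8 against 18.3 on 2L, 21.7 against 16.9 on 2R, 18.3 against 16.3 on 3L and 21.7 against 16.5 on X. These medians describe 1 list and were not tested.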

How the data were processed

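One peak list was analysed, from a series of 2 ChIP libraries and 2 input libraries. The submitters' processing notes name BWA, MACS2 and CASAVA (1.7.0.2 and 1.7.0.3) with build BDGP5. FlyBase release 5 and MACS are named per the file headers. The score is the authors' deposited value, of no named formula. Caller settings, pooling of libraries and depth are not stated in the labels or the file headers.

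Peak starts and ends were taken from the deposited coordinates (other units: bp). SciPy 1.17.1, NumPy 2.4.6 and pandas 2.3.3 were used under Python 3.11.15. An arm's length was its span, first peak start to last peak end. Densities were compared by two-sided exact binomial tests, adjusted by Benjamini-Hochberg over 4 arms. Densities have exact Poisson, shares Wilson and medians order-statistic intervals. The peaks named are the 15 highest scores, 5 widest, 3 lowest, groups of 5 or more, 6 longest empty stretches and densest windows of 100 kb. Members, arms compared and this rule were chosen with earlier results of these data known. Windows, joining distances and score minima were varied.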

Additional observations from a re-analysis of the deposited data

Results flagged for a closer look

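The 8 peaks on 3RHet, the assembled heterochromatin of this arm, were singled out as signal in sequence outside the comparisons of arms. They had a median score of 38.2, with a lowest of 8.74 and a highest of 100, and a median width of 609 bp. No explanation of these values was tested.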

How the results depend on the processing

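No paired analysis was possible because peaks carry a single score that names no library, which also kept replicates from being left out in turn. Of 42 alternatives over 12 results, 25 kept the direction and the side of the threshold or stayed within the 95% interval. A ratio along 3R that stayed within it could still have an interval of its own that held 1. This was so for the 4 Mb at the centromere end over the rest, at 1.27 (0.999 to 1.60). It was also so for the 2 Mb and the end segments with joining up to 10 kb, and for the end segments at or above the median score. Ratios of density that crossed 1 were those of 3R over 2L, at 1.00 with joining up to 1 kb, 1.05 with joining up to 10 kb and 1.00 without the largest group of each arm, and of 3R over 3L, at 1.03 with joining up to 10 kb and 1.11 among peaks at or above the median score. None of these 5 passed the exact binomial test. The call of 3R over 2R was lost at 0.853 and 0.882 with joining up to 1 and 10 kb. Keeping peaks at or above the median score thins the list by construction: 14.3% of distances on 3R were then up to 10 kb, the median distance was 65.4 kb, 48.4% of windows were empty, 0% of peaks were in groups of 5 or more and the median width was 697 bp. Joining up to 1 kb likewise gave 21.2% of distances up to 10 kb, a median distance of 32.6 kb and a median width of 520 bp. Groups of 5 or more took 1.97% of peaks with joining up to 5 kb and 18.3% with joining up to 20 kb. The ratio between the end segments of 3R, chosen after the data were seen, ran from 1.28 to 1.57. Depth per library is unknown, so what it limits could not be varied.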
